A study of Homo sapiens with 24 samples.

Results

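The 49 genes described here encode the machinery of DNA replication and the regulators that open S phase. They were taken from a fixed list of replication and G1/S genes, chosen with earlier results of these data known. The shares given below therefore describe this list and are not an independent test of it. A gene was kept when it had a probe set annotated to a single symbol. All 49 listed genes met that condition, among 18417 genes measured in the same way. For description they were arranged by role into 15 genes of licensing and origin firing, 20 of the fork and DNA synthesis, 4 of nucleotide supply, 6 of G1/S control and 4 of chromatin and histone supply.

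RNA was measured on 24 Affymetrix Human Gene ST arrays, 4 in each of 6 groups, in THP-1, a leukaemia line of human monocytic cells. The groups were the NOD1 line with doxycycline (DOX), the NOD1 line without DOX, the NLRP4 line with DOX, the NLRP4 line without DOX, the vector line with DOX and the vector line without DOX. NOD1 detects peptidoglycan fragments of bacteria in the cytosol, and NLRP4 belongs to the same family of NOD-like receptors. In the NOD1 and NLRP4 lines, a tetracycline-inducible (TRE) promoter in the lentiviral vector pSLIK_Neo drives the coding sequence, which carries a 3X FLAG tag. The vector line carries the vector alone, and all 3 lines were selected as stable lines with 1 mg/ml G418. Infection was kept low, below 30% of cells, so that most transduced cells hold a single integration, and the labels do not say whether a line is a pool or a clone. Cells were seeded at 50000 per well, and DOX was given at 1 µg/ml for 6 h.

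Several features of the design bear on every value below. The plate order was assigned in advance without randomization, each line has its own block of array numbers, and the uninduced arrays of a line are numbered before its DOX arrays. The effects of line, or of DOX, and of that order cannot be told apart. Each line is 1 transduced line, so what was introduced and any other difference between the lines cannot be told apart either. Nothing says that the 4 wells of a group were separate cultures, so each p-value here measures well-to-well spread, which may be technical. In bulk RNA, a change in the share of cells in S phase and a change in RNA per cell cannot be told apart.

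Arrays of one group correlated at 0.982 to 0.993 across genes. The introduced genes followed their labels: NOD1 averaged 12.75 with DOX in the NOD1 line and 8.74 without DOX, a log2 change of 4.02 (SE 0.135, limma adjusted p = 7.39e-16). NLRP4 averaged 11.93 with DOX in the NLRP4 line and 8.09 without DOX, a log2 change of 3.84 (SE 0.188, limma adjusted p = 3.73e-12). The two-sided exact permutation test gave p = 0.0286 for each, the smallest that 4 arrays against 4 allow. In the uninduced state NOD1 was already 0.40 higher in the NOD1 line than in the vector line (limma adjusted p = 0.0299, exact permutation p = 0.0571). NLRP4 was 1.17 higher in the uninduced NLRP4 line than in the uninduced vector line, or 2.25-fold (limma adjusted p = 0.0405, exact permutation p = 0.0286). Of the markers of THP-1's own lineage, LYZ, FCER1G and TYROBP were strongly detected, while the granule gene MPO gave a low signal in every group. The T and B cell markers CD3E, CD3D, CD2 and MS4A1 gave low signals in every group as well. CD79A, with group means of 8.32 to 8.52, lay above MPO, at 7.87 to 8.09. The erythroid marker KLF1, at 9.11 to 9.28, was close to the myeloid marker CEBPA, at 9.18 to 9.38, and EPCAM ran from 6.94 to 9.23. Signal level alone therefore did not fully separate the marker lists.

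DNA replication starts with licensing. The origin recognition complex, of which ORC1 is a subunit, works with CDC6 and CDT1 to load the MCM2 to MCM7 helicase onto origins during G1. Cyclin E and its kinase, together with the DBF4-dependent kinase, then convert the loaded helicase into the active form that also holds CDC45 and the GINS complex. At the fork, DNA polymerase alpha and primase lay down primers, the RFC clamp loader places the PCNA ring, and polymerases delta and epsilon extend the strands. RPA coats single-stranded DNA, and FEN1 and LIG1 finish the lagging strand. Many of these genes are classical targets of the E2F transcription factors, which the retinoblastoma protein restrains until late G1.

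The start regions of many of these genes hold a sequence feature that was not itself a criterion of selection. A list of replication and G1/S genes holds many known E2F targets, so an excess of E2F-type sites could be foreseen and is no independent test. The search covered windows of 300 bases, from 250 before to 50 after each annotated start, taken from RefSeq on GRCh38.p14, and 41 of the 49 genes had an entry. An E2F-type site, spelled TTTCCCGC, TTTGGCGC, TTTCGCGC or TTTGCCGC on either strand, was present for 23 of 41 genes (56.1%). It was present for 784 of the 14237 measured genes with an entry (5.51%), and in 3.31% of all 35116 windows of that length. The CCAAT box was present for 24 of the 41 genes (58.5%), against 42.2% of measured genes. The element TTTGAA, known from genes of later cell cycle stages, was present for 1 of the 41 (2.44%), against 15.7% of measured genes. Some matches overlap, since TTTGGCGC and the reverse of TTTCGCGC can share bases. The stretches below are shown because the genes they belong to span the responses described further on: E2F1, CDT1 and POLA2 were higher in the NOD1 line, POLA1 was lower, and PCNA, MCM6 and TYMS were not called. Each is 50 bases before the annotated start, written 5′ to 3′ on the gene's own strand, with the match in capitals.
E2F1, chr20:33686390-33686439, minus strand: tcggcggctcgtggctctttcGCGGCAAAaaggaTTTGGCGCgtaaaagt
CDT1, chr16:88803733-88803782, plus strand: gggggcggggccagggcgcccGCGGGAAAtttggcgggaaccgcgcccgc
POLA2, chr11:65261888-65261937, plus strand: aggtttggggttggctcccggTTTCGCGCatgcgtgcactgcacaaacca
POLA1, chrX:24693760-24693809, plus strand: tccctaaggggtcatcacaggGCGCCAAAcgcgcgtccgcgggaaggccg
PCNA, chr20:5126653-5126702, minus strand: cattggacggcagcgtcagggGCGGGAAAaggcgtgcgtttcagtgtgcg
MCM6, chr2:135876505-135876554, minus strand: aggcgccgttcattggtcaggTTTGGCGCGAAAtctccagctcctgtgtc
TYMS, chr18:657593-657642, plus strand: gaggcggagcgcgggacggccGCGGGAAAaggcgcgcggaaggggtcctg

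In the MCM6 stretch the 12 capital letters hold 2 overlapping matches, one on each strand, and the window held 4 matches in all. The E2F1 stretch holds 2 separate matches. A match to these letters is a description of the sequence and not evidence of binding.

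The uninduced NOD1 line differed from the uninduced vector line in 22 of the 49 genes (44.9%, against 24.9% of all genes). Cyclin E1, the polymerase alpha subunit POLA2, the helicase subunits MCM2 and MCM5, CDC45, CDT1, ORC1 and E2F1 were among 18 genes that rose, and POLA1, POLE2, RPA3 and CLSPN fell. A gene was called at a limma adjusted p under 0.05 over all 18417 genes, and each change is given on the log2 scale of the normalized signal. The share that rose was 36.7%, against 13.0% of all genes, and the share that fell was 8.16%, against 11.9% of all genes. The median change of the 49 was 0.19, against 0.03 for all genes, and 38 of the 49 changes lay above 0 (77.6%, against 56.2% of all genes). The changes were small: they ran from −0.67 to 0.78, and none reached 1 in size, as 2.23% of all genes did. The 4 NOD1 arrays all lay above the 4 vector arrays for 16 of the 49 genes (11.1% of all genes) and all below for 2 (9.84% of all genes). The balance depended on the scaling of the arrays: on the values as deposited 19 of the 49 rose and 1 fell (2198 and 1643 of all genes), and with arrays only centred on their medians 9 rose and 3 fell (1398 and 2433 of all genes). Centring ended the uninduced calls of ORC1, CDC45, RFC2, RFC4, RFC5, POLD3, FEN1, POLE2, E2F2 and E2F8, the values as deposited those of POLE2, RPA3, CLSPN and E2F8, and a fit of the compared arrays alone those of RPA3, CLSPN, FEN1, E2F2 and E2F8.

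With DOX in both lines the picture was close to that without DOX, on arrays not shared between the comparisons. Of the 49 genes, 18 rose (36.7%, against 13.6% of all genes) and POLA1 fell, the 1 gene called lower (2.04%, against 12.2% of all genes). The median change was 0.13, against 0.02 for all genes, and 37 changes lay above 0 (75.5%, against 54.9% of all genes). The arrays were fully separated upwards for 21 genes (15.5% of all genes) and downwards for 5 (13.2% of all genes). Called higher with and without DOX were 13 genes, which is 72.2% of either list of 18. Over all genes the genes called higher in both settings made up 72.9% of the uninduced list and 69.9% of the DOX list, so the overlap of the 49 was near that of all genes. The sign was the same for 44 of the 49 (89.8%), against 75.8% of all genes. Centring the arrays ended the DOX calls of MCM7, RFC2, RFC5, POLD3, FEN1 and SLBP, and the values as deposited those of CDT1, MCM7, RFC5, FEN1, UHRF1 and SLBP. The largest gap between the settings was that of RPA2, which changed by 0.75 without DOX and stood at 0.32 with DOX.

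**Figure D1:**
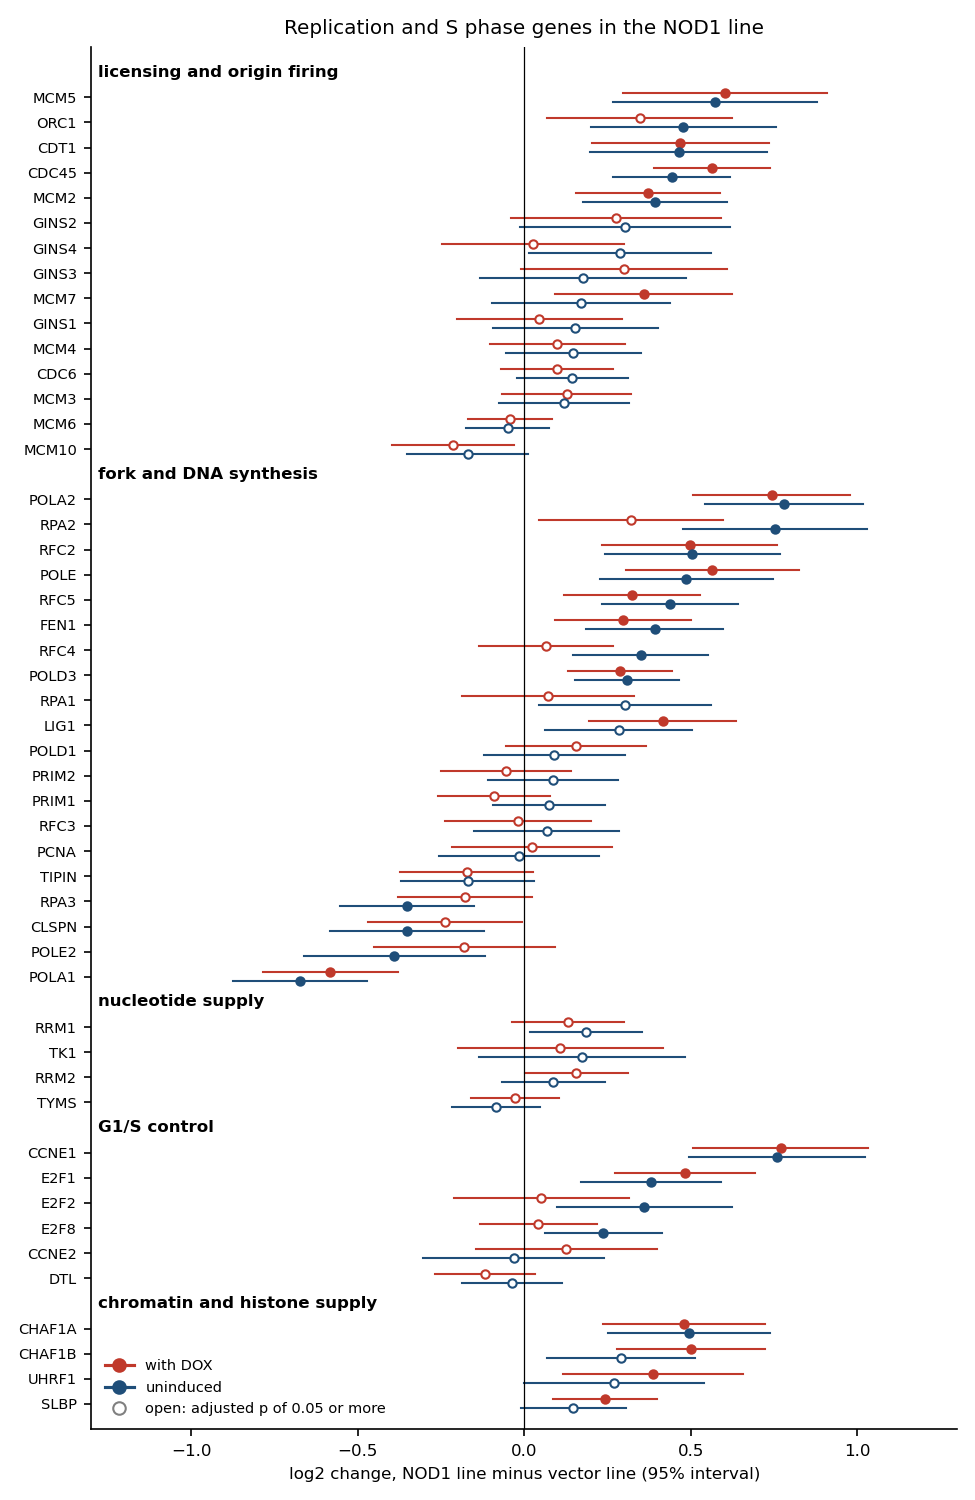
Log2 change of each of the 49 genes, NOD1 line minus vector line, with DOX (red) and uninduced (blue), with 95% intervals from the fit over 24 arrays, grouped by role. Filled points are called at an adjusted p under 0.05. Most filled points lie between 0.24 and 0.78, and POLA1 lies lowest at −0.67 and −0.58.

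The same direction was seen when the NLRP4 line took the place of the vector line. The uninduced NOD1 line had 17 genes higher than the uninduced NLRP4 line (14.1% of all genes) and 5 lower (12.8% of all genes), with a median change of 0.21, against 0.04 for all genes. On the values as deposited these were 18 and 2 (2733 and 1801 of all genes), and with arrays centred on their medians 7 and 5 (1418 and 2772). With DOX in both, 17 were higher (13.4% of all genes) and POLA1 was the 1 gene lower (12.0% of all genes), with a median of 0.19, against 0.02 for all genes. The values as deposited gave 11 and 1 there (1523 and 3677 of all genes), and arrays centred on their medians gave 23 and 1 (2609 and 1762). Comparisons that use the same NOD1 arrays are not independent of each other. Of the pairs that share no array, the uninduced NOD1-to-NLRP4 and the DOX-treated NOD1-to-vector comparisons had 15 genes higher in both, 88.2% of the first list and 83.3% of the second, against 69.3% and 72.0% over all genes. The uninduced NOD1-to-vector and DOX-treated NOD1-to-NLRP4 comparisons had 11 in both, 61.1% and 64.7%, against 67.7% and 65.9% over all genes. Against the NLRP4 line the call of POLE ended without replicate 1 of the uninduced NLRP4 line (0.34, adjusted p = 0.0515) and, with DOX, without replicate 3 of the DOX-treated NLRP4 line (0.35, adjusted p = 0.0681). That of POLD3 with DOX ended without either of 2 arrays, at adjusted p-values of 0.0673 and 0.0699.

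Of the 15 genes of licensing and origin firing, 5 rose in the NOD1 line against the vector line without DOX (33.3%, against 13.0% of all genes) and 5 with DOX (33.3%, against 13.6%). None was called lower in either setting, against 11.9% and 12.2% of all genes. Most of these genes are of high signal, where calls in both directions were more frequent among all genes. MCM5, a subunit of the replicative helicase, had log2 signals of 10.81, 10.95, 10.42 and 10.71 on the uninduced NOD1 arrays, against 10.39, 10.09, 10.03 and 10.09 on the uninduced vector arrays. With DOX it had 10.18, 10.71, 10.57 and 10.93 in the NOD1 line, against 10.02, 10.02, 9.90 and 10.03 in the vector line. All NOD1 arrays lay above all vector arrays of the same treatment, with the nearest uninduced pair at 10.42 and 10.39. The changes were 0.57 without DOX (SE 0.148, limma adjusted p = 0.00518) and 0.60 with DOX (limma adjusted p = 0.00322), near 1.5-fold. In the NLRP4 line MCM5 had 10.43, 10.39, 9.90 and 9.84 with DOX and 9.83, 10.04, 10.20 and 10.10 without. The DOX-treated NOD1 and NLRP4 arrays therefore overlapped, and the call there (0.46, limma adjusted p = 0.0236) ended without any 1 of 4 of the 8 arrays, at adjusted p-values of 0.0658 to 0.108.

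The rest of the MCM2 to MCM7 helicase did not move as a block. Mean log2 signals over all arrays were 9.49 for MCM2, 10.27 for MCM5 and 11.76 for MCM7. They were 12.07 for MCM4, 12.95 for MCM3 and 13.05 for MCM6. The subunits that rose in both settings, MCM2 and MCM5, were thus the dimmest, and the part of signal level in the split was not tested. MCM2 rose by 0.39 without DOX (SE 0.105, limma adjusted p = 0.00677), with 9.96, 9.79, 9.46 and 9.73 on the NOD1 arrays and 9.34, 9.34, 9.42 and 9.28 on the vector arrays. MCM2 with DOX rose by 0.37 (limma adjusted p = 0.00973), a call that ended without replicate 4 of the DOX-treated NOD1 line (0.28, adjusted p = 0.0549). MCM7 stood at 0.17 without DOX (limma adjusted p = 0.393) and rose by 0.36 with DOX (limma adjusted p = 0.0425). That call ended without any 1 of 6 of the 8 arrays, at adjusted p-values of 0.0605 to 0.117. MCM3 stood at 0.12 and 0.13 without and with DOX, and MCM4 at 0.15 and 0.10, none of them called. MCM6 had 12.96, 13.13, 13.05 and 12.98 on the uninduced NOD1 arrays and 13.09, 13.07, 13.05 and 13.11 on the uninduced vector arrays. Its change of −0.05 had a 95% interval of −0.18 to 0.08, narrow enough to leave out a rise of the size seen for MCM5.

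CDC45, which joins the helicase when an origin fires, was higher in the NOD1 line than in the vector line with and without DOX. It had 11.94, 12.02, 11.66 and 12.01 on the uninduced NOD1 arrays, against 11.44, 11.58, 11.51 and 11.34 on the uninduced vector arrays. With DOX the values were 12.04, 12.13, 11.93 and 12.14 in the NOD1 line, against 11.45, 11.58, 11.50 and 11.46 in the vector line. No NOD1 array overlapped a vector array, and the changes were 0.44 without DOX (SE 0.084, limma adjusted p = 0.000326) and 0.57 with DOX (limma adjusted p = 1.86e-05). The NLRP4 line lay with the vector line, at 11.48, 11.68, 11.62 and 11.43 with DOX and 11.56, 11.45, 11.49 and 11.59 without.

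The 2 loading factors CDT1 and ORC1 were also higher. CDT1 had 8.75, 9.22, 9.01 and 9.05 on the uninduced NOD1 arrays and 8.70, 8.26, 8.67 and 8.55 on the uninduced vector arrays. It rose by 0.46 without DOX (SE 0.129, limma adjusted p = 0.00879) and by 0.47 with DOX (limma adjusted p = 0.00783). ORC1 rose by 0.48 without DOX (SE 0.135, limma adjusted p = 0.00988) and stood at 0.35 with DOX (limma adjusted p = 0.0614). CDC6, which acts with both, stood at 0.14 and 0.10 without and with DOX and was not called. None of the 4 GINS genes was called against the vector line. Their uninduced changes ran from 0.15 for GINS1 to 0.30 for GINS2, and their changes with DOX from 0.03 for GINS4 to 0.30 for GINS3. Against the DOX-treated NLRP4 line GINS3 and GINS4 were called higher in the DOX-treated NOD1 line. The GINS3 call ended without any 1 of 4 of the 8 arrays, at limma adjusted p-values of 0.059 to 0.0952. That of GINS4 ended without any 1 of 3, at 0.0576 to 0.105.

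MCM10, which helps to activate the helicase, went the other way from CDC45. Against the uninduced NLRP4 line it fell by 0.26 (SE 0.088, limma adjusted p = 0.0323), with 11.24, 11.12, 11.30 and 11.01 in the NOD1 line and 11.25, 11.50, 11.55 and 11.40 in the NLRP4 line. One NOD1 array lay above the lowest NLRP4 array, and the call ended without any 1 of 4 of the 8 arrays, at adjusted p-values of 0.0789 to 0.122. Against the vector line MCM10 stood at −0.17 without DOX and was not called.

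Of the 20 genes of the fork and DNA synthesis, 8 rose (40%, against 13.0% of all genes) and 4 fell (20%, against 11.9%) in the NOD1 line against the vector line without DOX. With DOX 7 rose (35.0%, against 13.6%) and 1 fell (5.00%, against 12.2%). Most of these genes are of high signal, where calls were more frequent. In the brightest of 5 bins by mean signal 26.0% of all genes rose and 27.8% fell without DOX. In the bin below it 22.0% rose and 17.2% fell, so a share of 20% lower is no excess over genes of such signal. DNA polymerase alpha gave the widest split within a complex. POLA2, its accessory subunit, had 10.82, 10.55, 10.31 and 10.65 on the uninduced NOD1 arrays, against 9.80, 9.78, 9.87 and 9.75 on the uninduced vector arrays. POLA1, its catalytic subunit, had 11.60, 10.98, 11.47 and 11.45 on the same NOD1 arrays, against 11.99, 12.02, 12.09 and 12.09 on the same vector arrays. Neither gene showed any overlap between the lines. POLA2 rose by 0.78, or 1.72-fold (SE 0.115, limma adjusted p = 1.65e-05), and POLA1 fell by 0.67, or 1.59-fold (SE 0.098, limma adjusted p = 1.46e-05).

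The split held with DOX and against the other line. With DOX, POLA2 had 10.54, 10.50, 10.72 and 10.51 in the NOD1 line, against 9.57, 9.97, 9.54 and 9.67 in the NLRP4 line and 9.86, 9.84, 9.79 and 9.79 in the vector line. POLA1 with DOX had 11.57, 11.33, 11.32 and 11.46 in the NOD1 line, against 12.06, 12.07, 12.19 and 12.19 in the NLRP4 line and 11.86, 12.03, 12.05 and 12.07 in the vector line. Every NOD1 array lay outside the range of both other lines for both genes. Over the 4 comparisons of the NOD1 line POLA2 changed by 0.74 to 0.88 and POLA1 by −0.71 to −0.58. The primase subunits PRIM1 and PRIM2, which complete the complex, stood at 0.08 and 0.09 against the vector line without DOX and were not called.

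Polymerase epsilon was split less widely. POLE, its catalytic subunit, had 9.89, 9.85, 9.51 and 9.48 on the uninduced NOD1 arrays and 9.36, 8.95, 9.09 and 9.38 on the uninduced vector arrays, without overlap. It rose by 0.49 (SE 0.125, limma adjusted p = 0.00507) and by 0.56 with DOX (limma adjusted p = 0.00134). POLE2, its second subunit, had 9.05, 9.42, 9.10 and 9.12 on the uninduced NOD1 arrays and 9.32, 9.69, 9.58 and 9.67 on the uninduced vector arrays. Here 1 NOD1 array lay above the lowest vector array, and the fall of 0.39 (SE 0.132, limma adjusted p = 0.0308) lost its call without any 1 of 6 of the 8 arrays, at adjusted p-values of 0.0624 to 0.0884. With DOX POLE2 had 9.24, 9.01, 9.82 and 9.52 in the NOD1 line, against 9.62, 9.47, 9.73 and 9.49 in the vector line, and the groups overlapped. Against the uninduced NLRP4 line, at 9.69, 9.76, 9.85 and 9.68, it fell by 0.57 (limma adjusted p = 0.00177).

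RPA showed a rise of one subunit and a fall of another. RPA2 had 10.54, 10.88, 10.42 and 10.73 on the uninduced NOD1 arrays and 9.54, 10.40, 9.80 and 9.80 on the uninduced vector arrays, where 1 vector array nearly reached the NOD1 range. It rose by 0.75, or 1.69-fold (SE 0.134, limma adjusted p = 0.000146). RPA3 had 9.46, 9.42, 9.93 and 9.71 on the uninduced NOD1 arrays and 10.04, 9.93, 9.92 and 10.04 on the uninduced vector arrays. It fell by 0.35 (SE 0.097, limma adjusted p = 0.00859), with 1 NOD1 array inside the vector range. With DOX neither was called against the vector line, at 0.32 for RPA2 (limma adjusted p = 0.0841) and −0.18 for RPA3 (limma adjusted p = 0.204). RPA1, the large subunit, stood at 0.30 without DOX (limma adjusted p = 0.0814) and 0.07 with DOX. The difference between those settings for RPA2, which is the difference in DOX effect between the NOD1 and vector lines, was −0.43 and was not called. Against the DOX-treated NLRP4 line RPA1 and RPA2 were called higher in the DOX-treated NOD1 line. The RPA1 call ended without any 1 of 5 of the 8 arrays, at limma adjusted p-values of 0.0782 to 0.17. That of RPA2 ended without any 1 of 4, at 0.0515 to 0.0738.

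Of the clamp loader genes RFC2 to RFC5, RFC2 and RFC5 rose in both settings. RFC2 had 11.78, 12.31, 12.03 and 12.28 on the uninduced NOD1 arrays and 11.63, 11.85, 11.63 and 11.28 on the uninduced vector arrays, overlapping at 1 vector array. It rose by 0.51 without DOX (SE 0.127, limma adjusted p = 0.00419). With DOX it had 12.15, 12.26, 11.90 and 12.11 in the NOD1 line, against 11.36, 11.58, 11.26 and 11.59 in the NLRP4 line and 11.71, 11.56, 11.44 and 11.72 in the vector line, with no overlap. It then rose by 0.50 against the vector line (limma adjusted p = 0.0045) and by 0.66 against the NLRP4 line (limma adjusted p = 0.000367). RFC5 rose by 0.44 without DOX (limma adjusted p = 0.00165). It rose by 0.32 with DOX (limma adjusted p = 0.0163), a call that ended without replicate 2 or 4 of the DOX-treated NOD1 line (adjusted p = 0.0593 and 0.0564). RFC4 rose by 0.35 without DOX (limma adjusted p = 0.0093) and stood at 0.07 with DOX, and RFC3 stood at 0.07 and −0.02.

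FEN1, the flap nuclease, rose by 0.39 without DOX (limma adjusted p = 0.00443) and by 0.30 with DOX (limma adjusted p = 0.0288). The second call ended without any 1 of 6 of the 8 arrays, at adjusted p-values of 0.0533 to 0.109. LIG1, the ligase that joins Okazaki fragments, stood at 0.28 without DOX (limma adjusted p = 0.0553) and rose by 0.42 with DOX (limma adjusted p = 0.00465). POLD3, a polymerase delta subunit, rose by 0.31 and 0.29 without and with DOX, while the catalytic subunit POLD1 stood at 0.09 and 0.16 and was not called. PCNA, the sliding clamp, had 11.04, 11.64, 11.44 and 11.43 on the uninduced NOD1 arrays and 11.26, 11.64, 11.48 and 11.23 on the uninduced vector arrays, which overlapped throughout. Its change was −0.02 without DOX, with a 95% interval of −0.26 to 0.22, and 0.02 with DOX.

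CLSPN encodes claspin, which links the fork to the checkpoint kinase CHEK1. It had 11.88, 11.47, 11.89 and 11.76 on the uninduced NOD1 arrays and 12.04, 11.91, 12.08 and 12.38 on the uninduced vector arrays, with the NOD1 arrays all lower. It fell by 0.35 (SE 0.112, limma adjusted p = 0.0216), and the call ended without replicate 4 of the uninduced vector line (−0.26, adjusted p = 0.107) or replicate 2 of the uninduced NOD1 line (−0.26, adjusted p = 0.112). A second, dimmer probe set for CLSPN gave larger falls, of 0.77 without DOX (limma adjusted p = 0.00357) and 0.63 with DOX (limma adjusted p = 0.014), in a fit over all single-symbol probe sets. Its partner TIPIN, a component of the fork protection complex, stood at −0.17 in both settings and was not called.

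None of the 4 genes of nucleotide supply, RRM1, RRM2, TYMS and TK1, was called against the vector line in either setting. Of all genes 24.9% were called without DOX and 25.8% with DOX, and 4 genes are too few to set against those shares. Thymidylate synthase, TYMS, had 13.73, 13.76, 13.60 and 13.72 on the uninduced NOD1 arrays and 13.89, 13.78, 13.74 and 13.73 on the uninduced vector arrays. Its changes were −0.09 and −0.03 without and with DOX. The ribonucleotide reductase subunits stood at 0.19 and 0.13 for RRM1 and at 0.09 and 0.16 for RRM2. TK1, thymidine kinase, was called in 1 comparison, the uninduced NOD1 line against the uninduced NLRP4 line. It had 10.64, 10.55, 10.16 and 9.88 there, against 9.80, 9.84, 10.11 and 9.80, and the rise of 0.42 (limma adjusted p = 0.0404) lost its call without any 1 of 5 of the 8 arrays, at adjusted p-values of 0.083 to 0.157.

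G1/S control held one of the largest rises. CCNE1, cyclin E1, had 10.86, 11.26, 10.86 and 10.91 on the uninduced NOD1 arrays, against 10.25, 10.15, 10.33 and 10.13 on the uninduced vector arrays. With DOX it had 11.08, 10.80, 10.77 and 11.04 in the NOD1 line, against 10.55, 10.01, 9.74 and 9.99 in the NLRP4 line and 10.27, 10.15, 10.01 and 10.18 in the vector line. The NOD1 arrays lay above all others in both settings. CCNE1 rose by 0.76, or 1.69-fold, without DOX (SE 0.128, limma adjusted p = 8.05e-05) and by 0.77, or 1.71-fold, with DOX (limma adjusted p = 6.36e-05). CCNE2, the other cyclin E gene, stood at −0.03 and 0.13 and was not called.

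The activator E2F1 was higher too. It had 10.00, 10.10, 10.07 and 9.90 on the uninduced NOD1 arrays, against 9.83, 9.65, 9.47 and 9.59 on the uninduced vector arrays, without overlap. It rose by 0.38 without DOX (SE 0.102, limma adjusted p = 0.00662) and by 0.48 with DOX (limma adjusted p = 0.000819). E2F2, another activator, rose by 0.36 without DOX (limma adjusted p = 0.0398) and stood at 0.05 with DOX. E2F8, a repressor of the family, rose by 0.24 without DOX (limma adjusted p = 0.0432) and stood at 0.04 with DOX. The call of E2F2 ended without any 1 of 6 and that of E2F8 without any 1 of 7 of the 8 arrays, at adjusted p-values of 0.068 to 0.117 and 0.0509 to 0.107. DTL, the adaptor of the ubiquitin ligase that removes CDT1 in S phase, stood at −0.04 and −0.12 and was not called.

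All 4 genes of chromatin and histone supply rose in the NOD1 line against the vector line with DOX (13.6% of all genes), and 1 of them without DOX (13.0% of all genes). They are of high signal, where calls were more frequent among all genes. Their 4 changes without DOX all lay above 0, with a median of 0.28, and the difference in DOX effect between the lines was called for none of them. CHAF1A and CHAF1B are subunits of the assembly factor that deposits histones behind the fork. CHAF1A had 11.18, 11.08, 10.83 and 10.97 on the uninduced NOD1 arrays and 10.72, 10.42, 10.44 and 10.49 on the uninduced vector arrays. It rose by 0.50 without DOX (SE 0.118, limma adjusted p = 0.0026) and by 0.48 with DOX (limma adjusted p = 0.0032). CHAF1B had 11.07, 11.20, 11.00 and 10.88 in the NOD1 line with DOX and 10.50, 10.63, 10.57 and 10.45 in the vector line with DOX. Neither gene's arrays overlapped, and CHAF1B rose by 0.50 with DOX (SE 0.108, limma adjusted p = 0.000999) and stood at 0.29 without DOX (limma adjusted p = 0.0507). UHRF1, which guides maintenance DNA methylation, rose by 0.39 with DOX (limma adjusted p = 0.0305), a call that ended without any 1 of 5 of the 8 arrays, at adjusted p-values of 0.0526 to 0.116. Its second probe set stood at 0.22 (limma adjusted p = 0.13). SLBP, which binds the histone mRNA stem-loop, rose by 0.24 with DOX (limma adjusted p = 0.0195), and the call ended without replicate 4 of the DOX-treated vector line (0.21, adjusted p = 0.0719).

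**Figure D2:**
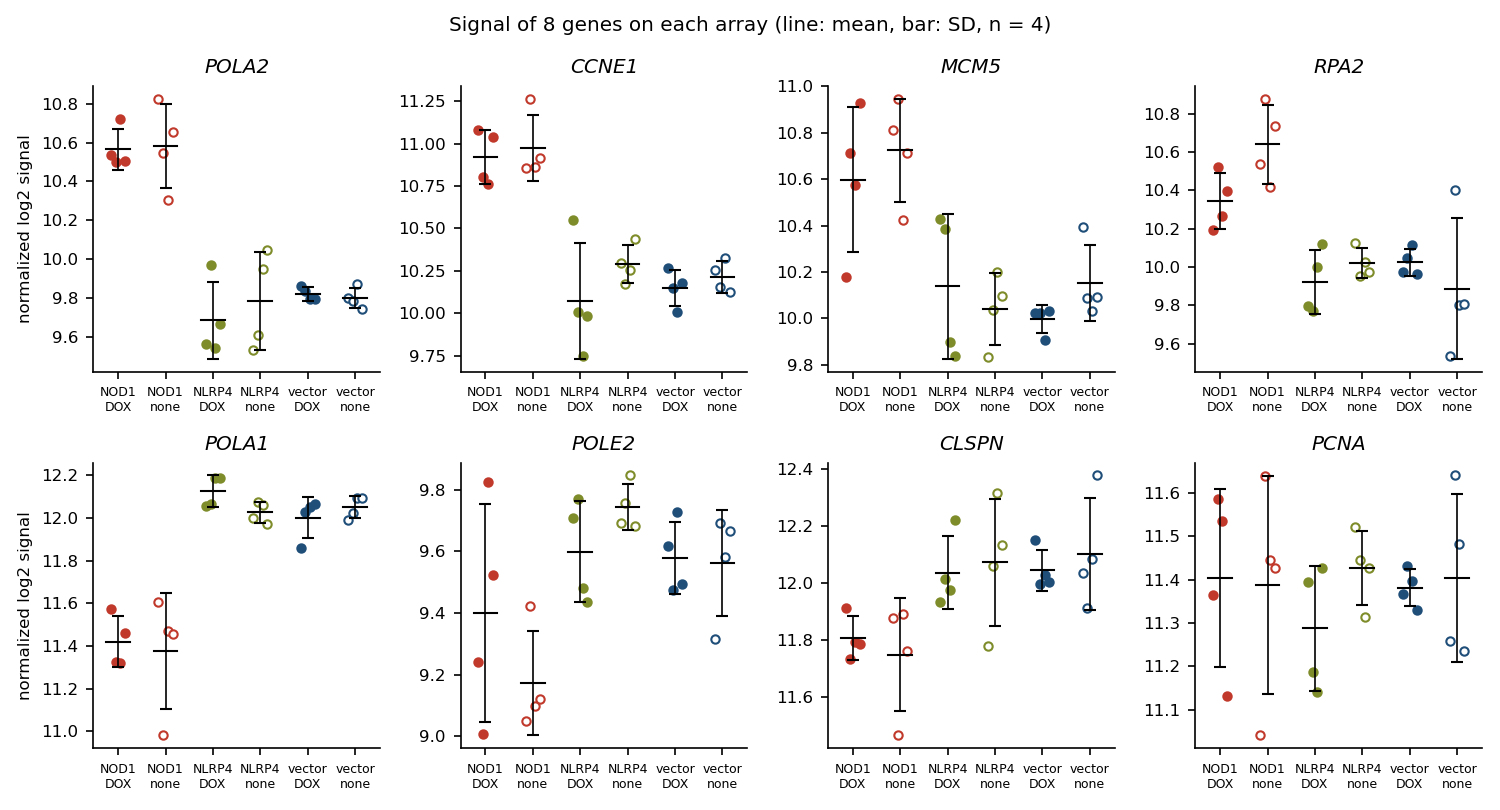
Normalized log2 signal of 8 genes on each of the 24 arrays, by line and DOX. Points are arrays, horizontal lines are group means and bars are SD (n = 4). POLA2 and CCNE1 lie above, and POLA1 below, all arrays of both other lines in the NOD1 line, and PCNA overlaps in all 6 groups.

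The mean over the 49 genes summarizes the levels. It was 11.15 ± 0.0173 (SD, n = 4) in the NOD1 line with DOX and 11.15 ± 0.0626 without DOX. It was 10.95 ± 0.0219 and 10.98 ± 0.0273 in the NLRP4 line with and without DOX, and 10.96 ± 0.0123 and 10.95 ± 0.0313 in the vector line. The 4 means of the NLRP4 and vector lines lay between 10.95 and 10.98. MKI67, a proliferation marker outside the 49 named after its values were seen, ran the other way: it averaged 11.82 ± 0.113 and 11.87 ± 0.234 in the NOD1 line with and without DOX, against 12.70 ± 0.0417 and 12.74 ± 0.187 in the vector line.

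No difference between the NLRP4 line and the vector line was called in these genes. This held for all 49 without DOX (0.0163% of all genes) and with DOX (0.0380% of all genes) by limma, while 2 of them had an unadjusted p under 0.05 without DOX (4.96% of all genes) and 4 with DOX (6.11%). The lowest p without DOX was that of PRIM1, at 0.24 (limma adjusted p = 0.798), with 12.55, 12.56, 12.26 and 12.64 in the NLRP4 line and 12.15, 12.35, 12.33 and 12.21 in the vector line. The lowest with DOX was that of GINS4, at −0.40 (limma adjusted p = 0.606), with 9.44, 9.09, 9.22 and 9.08 in the NLRP4 line and 9.53, 9.50, 9.84 and 9.54 in the vector line. The PRIM1 groups overlapped, and the GINS4 groups did not.

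DOX for 6 h gave no called change in any of the 49 genes. This held in the NOD1 line (0.0109% of all genes called), in the NLRP4 line (0.0163% of all genes), in the vector line (0% of all genes) and over the mean of the 3 lines (0.0271% of all genes). By limma 2 of the 49 had an unadjusted p under 0.05 in the NOD1 line (5.77% of all genes), 3 in the NLRP4 line (8.05%), 1 in the vector line (3.38%) and 1 over the mean of the 3 lines (5.56%). Over the 49 genes the 95% intervals ran from −0.57 to 0.50 in the NOD1 line, from −0.64 to 0.58 in the NLRP4 line and from −0.46 to 0.52 in the vector line. A change of 1 on the log2 scale lay outside every one of these intervals. For the mean of the 3 lines all 49 intervals lay between −0.35 and 0.29. These limits hold for the quantile-normalized values. With arrays only centred on their medians none of the 49 was called either, but 4 of the 49 changes lay above 0 in the NLRP4 line, with a median of −0.33 (−0.06 for all genes). Over the mean of the 3 lines 4 of 49 lay above 0 as well, with a median of −0.12 (−0.04 for all genes).

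The genes nearest to a call show what those limits mean. In the NOD1 line RPA2 had 10.19, 10.52, 10.27 and 10.40 with DOX and 10.54, 10.88, 10.42 and 10.73 without DOX, a difference of −0.30 (SE 0.134, limma adjusted p = 0.832). In the NLRP4 line GINS3 had 8.82, 9.01, 8.78 and 9.29 with DOX and 9.70, 9.45, 8.72 and 9.35 without DOX, a difference of −0.33 (limma adjusted p = 0.601). Both pairs of groups overlapped. In the vector line PRIM1 had 12.42, 12.46, 12.48 and 12.43 with DOX and 12.15, 12.35, 12.33 and 12.21 without DOX. These groups did not overlap, at a difference of 0.19 (limma adjusted p = 0.999). Over the 3 lines SLBP stood lowest in p, at −0.10 (SE 0.044, limma adjusted p = 0.875).

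For none of the 49 genes was a difference in DOX effect between lines called by limma. For the NOD1 minus vector effect 0.00543% of all genes were called, and 1 of the 49 had an unadjusted p under 0.05 (4.05% of all genes). For the NLRP4 minus vector effect 0.00543% were called and 3 of the 49 had such a p (4.92%), and for the NOD1 minus NLRP4 effect 0.0109% were called and 1 had such a p (8.01%). The closest were RPA2 for the first, at −0.43, GINS4 for the second, at −0.51 (limma adjusted p = 0.939), and RPA3 for the third, at 0.34 (limma adjusted p = 0.572). The NOD1 transcript itself changed by 4.02 in the same 6 h.

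**Figure D3:**
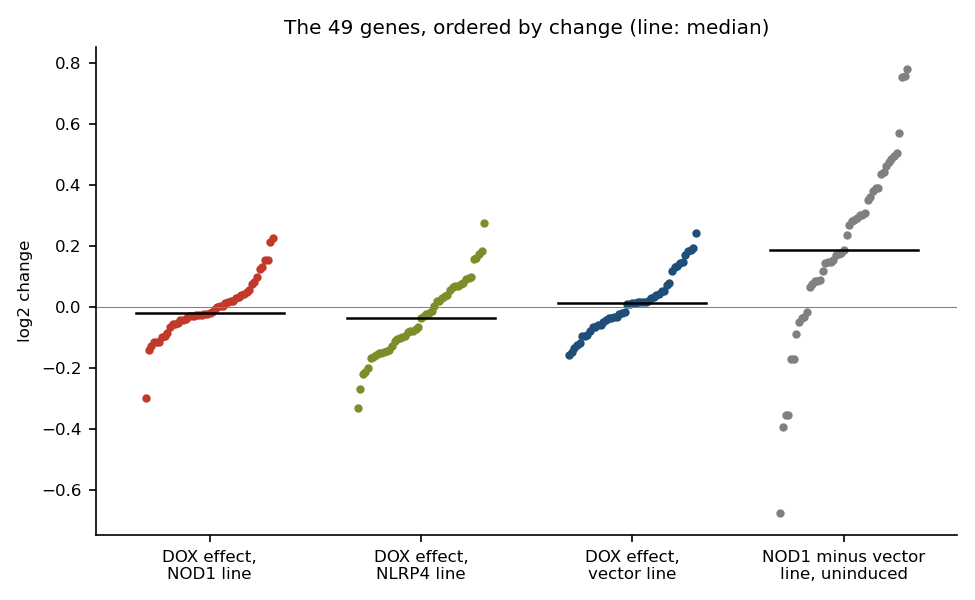
Log2 change of the 49 genes with DOX in the NOD1, NLRP4 and vector lines, and, for scale, for the uninduced NOD1 line minus the uninduced vector line. Points are genes ordered by change and horizontal lines are medians. The DOX effects lie between −0.33 and 0.28, and the difference between lines runs from −0.67 to 0.78.

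**Figure D4:**
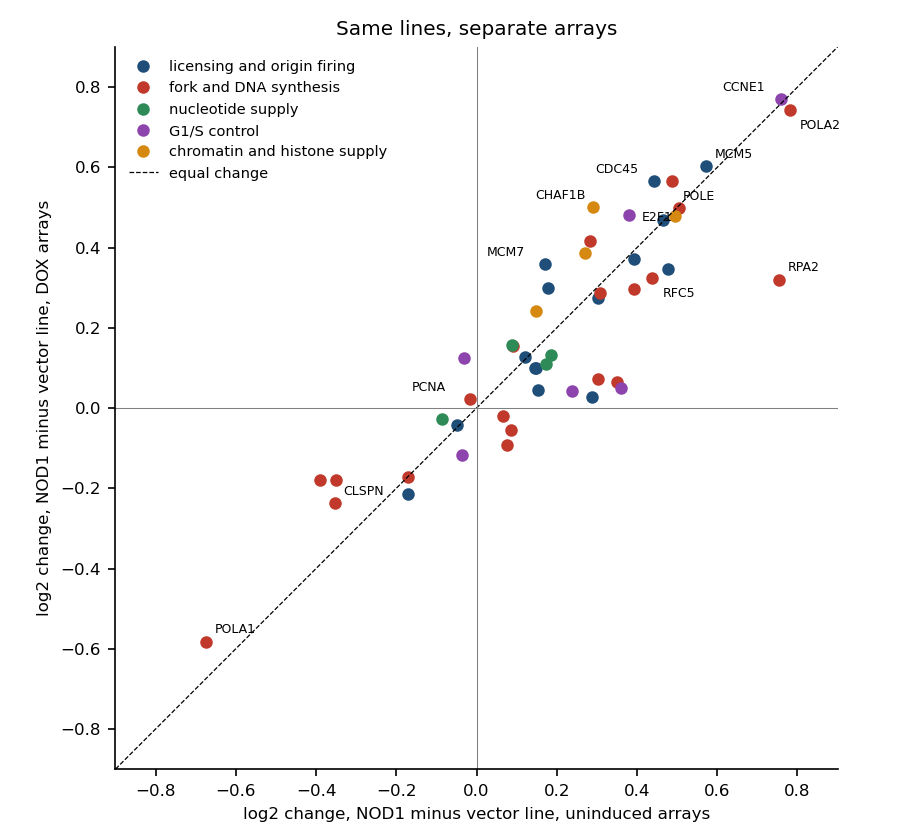
Change of the 49 genes, NOD1 line minus vector line, on uninduced arrays (x axis) and on DOX arrays (y axis), both on the log2 scale. No array enters both axes, points are coloured by role, and the dashed line marks equal change. Of the 49 genes 44 lie on the same side of 0 on both axes, and RPA2 lies farthest below the dashed line.

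Lists of other replication and cell cycle genes are read against the 13.0% of all genes that rose and the 11.9% that fell in the NOD1 line against the vector line without DOX. Most genes on these lists are of high signal, where calls were more frequent. When all genes were put in 5 bins by mean signal, 26.0% rose and 27.8% fell in the brightest bin, and 22.0% and 17.2% in the bin below. Set against those shares, the falls in the lists stand out less. Of 18 further licensing and firing factors, 1 rose (5.56%) and 10 fell (55.6%), with a median of −0.38. The change was 0.66 for ORC6 (limma adjusted p = 9.67e-06), a subunit of the same complex as ORC1. The falls were led by TOPBP1 at −0.56 and WDHD1 at −0.60, both needed for origin firing or fork assembly, and DBF4 at −0.78, the activator of the CDC7 kinase. The core subunits ORC2, ORC3 and ORC4, named after their values were seen, fell by 0.57, 0.57 and 0.40. With DOX the counts in this group were again 1 and 10.

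Of 18 further fork proteins, 6 rose (33.3%) and 6 fell (33.3%). RFC1, the large subunit of the clamp loader, fell by 0.92 while RFC2, RFC4 and RFC5 rose. ATAD5, which unloads PCNA, fell by 1.27, the topoisomerase TOP2A by 0.72, and the cohesin acetyltransferase ESCO2 by 0.72. Of 16 further nucleotide enzymes, 3 rose (18.8%) and 2 fell (12.5%), near the shares of all genes, with the CTP synthase CTPS1 at 0.83. Of 10 further chromatin factors, 4 rose (40%) and 3 fell (30.0%). The remodeller HELLS fell by 1.08, MMS22L by 0.87 and the histone chaperone ASF1A by 0.46, and SSRP1, a subunit of the FACT chaperone, rose by 0.58.

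Among 26 further G1/S regulators, 6 rose (23.1%) and 5 fell (19.2%), not far from the shares of all genes. RB1, the retinoblastoma gene, fell by 1.09 (limma adjusted p = 2.79e-09), TFDP2, an E2F partner, by 1.00, and the cyclin D kinase CDK6 by 0.88, while CDK2, the kinase of cyclin E, rose by 0.87 (limma adjusted p = 7.7e-06). Of 8 genes of the replication checkpoint, 1 rose (12.5%) and 4 fell (50.0%). ETAA1 fell by 1.35 and ATR, which it activates, by 0.72. CHEK1 fell by 0.34, and the clamp subunit RAD1 rose by 0.31. Of 24 genes of G2 and mitosis, 4 rose (16.7%) and 11 fell (45.8%), with CENPF at −1.45, the spindle motor KIF11 at −1.21, the kinetochore gene NDC80 at −0.70 and CDC20 at 0.94. None of the genes on these lists was called in the NLRP4 line against the vector line.

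**Figure D5:**
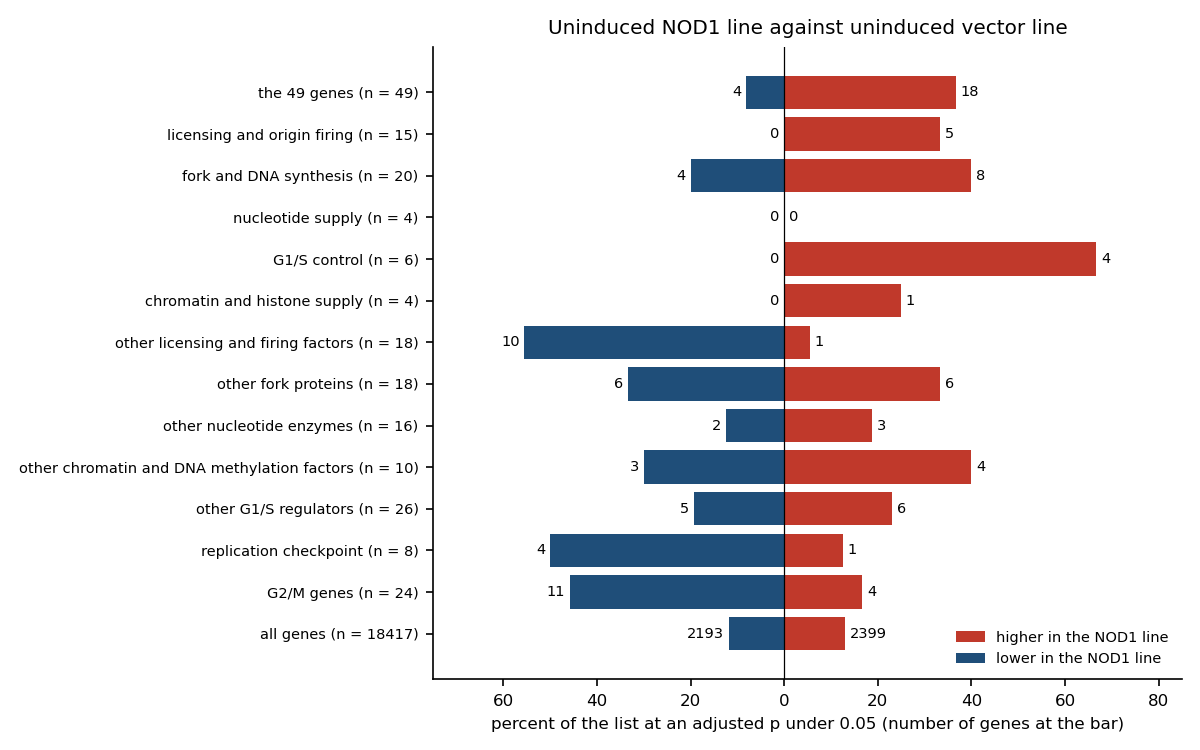
Share of each gene list called higher (red, to the right) or lower (blue, to the left) in the uninduced NOD1 line against the uninduced vector line, in percent of the list, with the number of genes at each bar. The 49 genes have 18 higher and 4 lower, the further licensing and firing factors 1 higher and 10 lower, and all 18417 genes 2399 higher and 2193 lower.

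Several measured properties moved with these results, and their part in them was not tested. Calls were more frequent among genes of high signal, where most of the 49 lie, as shown by 5 bins of equal gene number drawn after the data were seen. In the brightest bin, with mean log2 signals of 10.42 to 15.60, 9 of 30 of the genes rose (30.0%), against 26.0% of all genes there, and 2 fell (6.67%), against 27.8%. In the bin below it, 7 of 16 rose (43.8%), against 22.0%, and 2 fell (12.5%), against 17.2%. Read this way, the share that rose was near the background in the brightest bin, and fewer of the genes fell than of all genes there. With DOX the brightest bin gave 10 of 30 higher (33.3%, against 27.2%) and 1 lower (3.33%, against 28.5%). Across the 49 genes, change and mean signal gave a Spearman rho of −0.41 without DOX and −0.39 with DOX. Over all genes the values were 0.01 and −0.01, so within the 49 the dimmer genes rose more.

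Falls were also more frequent in long genes. Of 5 equal bins of genomic span, in the shortest 2.99% fell in the NOD1 line against the vector line without DOX, and in the longest 22.0%. Across all 18386 genes with a span, change and span gave a Spearman rho of −0.17, and across the 49 genes −0.24, where genes share arrays and are not independent replicates. POLA1, which fell, spans 303 kb and POLA2, which rose, 44.0 kb. Of the 4 listed genes in the longest bin, POLA1 fell without DOX and none rose. In the bin next to it 3 of 19 listed genes fell, against 19.01% of all genes there, and 7 rose. POLE2, at 44.7 kb, is among those that fell there. None of the 2, 10 and 14 listed genes in the shorter bins fell. PRIM2, at 425 kb, and RFC3, at 159 kb, were called in no comparison of the NOD1 line. The part of span in these calls was not tested. Split by the E2F-type match in the start region, of 23 genes with a match 6 rose and 3 fell without DOX (median 0.15), and of 18 without a match, 8 rose and none fell (median 0.30). With DOX the counts were 8 and 1 of 23 with a match, and 8 and 0 of 18 without. Of all genes 13.0% rose and 11.9% fell without DOX, and 13.6% and 12.2% with DOX. All genes were not split by the match, so these counts have no matched background.

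Markers of cell identity moved as well. Of 9 monocytic and myeloid markers, 8 were higher in the uninduced NOD1 line than in the uninduced vector line and 7 with DOX, with medians of 0.52 and 0.48. Of all genes, 13.0% and 13.6% were called higher in these comparisons, and 56.2% and 54.9% had a change above 0. The mean over these markers was 10.90 and 10.93 in the NOD1 line with and without DOX, 10.51 and 10.49 in the NLRP4 line, and 10.40 and 10.44 in the vector line. None of 5 T and B cell markers was called. Of 5 erythroid and epithelial markers 1 was called, EPCAM, which fell by 1.89 (limma adjusted p = 0.00129).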

How the data were processed

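The deposited log2 signals, 1 per probe set and array, were made by the authors with RMA and the oligo package, per the submitters' processing notes; their versions and the genome build were not given in the sources used. Of 33297 probe sets, 19460 had 1 gene symbol in the platform annotation, and 19429 of those matched RefSeq (GRCh38.p14). The single-symbol probe set with the highest mean stood for its gene, leaving 18417 genes, with no filter on dim genes. Deposited array medians ran from 8.06 to 8.85, so the gene table was quantile-normalized between arrays. With limma 3.58.1 in R 4.3.3, 6 group means were fitted per gene over 24 arrays (18 residual degrees of freedom), with empirical Bayes moderation and Benjamini-Hochberg adjustment over all genes, in 13 comparisons. SE and 95% intervals come from that fit, and 4 arrays per group limit its precision. No background level was measured.

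The naming rule took the called genes with the largest changes between lines, up to 5 each way per comparison, and the 3 with the lowest p in each DOX comparison; MCM2 to MCM7 and PCNA are described whatever their values. Values per array are given for most of them, and the others, such as E2F2, RFC3, RFC4 and RPA1, by their change alone. Per-array values of CDT1, E2F1, TYMS and CHAF1B were added after their values were seen. In other lists up to 4 called genes with the lowest p are named. The 49 genes, the role groups and the lists were chosen with earlier results of these data known. The fit was tested on simulated arrays in which far fewer genes changed than were called between the NOD1 and vector lines. That test therefore does not cover the dependence of the counts on the scaling of the arrays. Listed genes without a single-symbol probe set were not analysed here.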

Additional observations from a re-analysis of the deposited data

Results flagged for a closer look

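In 7 of 144 sets of 4 arrays, each being 1 gene in 1 group, 1 array stood so far from the other 3 that its gap to the nearest exceeded Dixon's 95% critical share of the range of the set. Chance gives about 1 such set in 20. Of the 7, 4 were in the DOX-treated vector line. There MCM5 had 9.90 in replicate 3, against 10.02 to 10.03 in the others, and GINS4 had 9.84 in replicate 3, against 9.50 to 9.54. In the same group POLE had 9.14 in replicate 1, against 9.03 to 9.04, and CHAF1A had 10.54 in replicate 4, against 10.33 to 10.36. POLA2 had 10.72 in replicate 3 of the DOX-treated NOD1 line, against 10.50 to 10.54. CCNE1 had 11.26 in replicate 2 of the uninduced NOD1 line, against 10.86 to 10.91. TK1 had 10.11 in replicate 3 of the uninduced NLRP4 line, against 9.80 to 9.84.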

How the results depend on the processing

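The counts of called genes among the 49 were recomputed under 8 other settings and without each array in turn. The settings were the values as deposited, arrays centred on their medians, a fit of the compared arrays alone (not possible for the mean of 3 lines), the array median as a covariate, array weights, the dimmest genes left out, every single-symbol probe set, and an intensity trend with a robust prior. Centring arrays on their medians in place of quantile normalization gave 12 called genes for the uninduced NOD1 and vector lines and 12 for the uninduced NOD1 and NLRP4 lines, against 22 in each, and the cause was not tested. Each other setting kept the count within 1.5 times its value. Without each array in turn the counts for the NOD1 and vector lines ran from 18 to 24 uninduced and from 14 to 17 with DOX. For the NOD1 and NLRP4 lines they ran from 17 to 26 uninduced and from 14 to 18 with DOX. The count of 0 for the NLRP4 line against the vector line and for every DOX comparison was 0 under all settings run. Of single genes named, PRIM1 changed sign: its mean DOX effect over the 3 lines was 0.08, and −0.078 with centred arrays, neither called. On the values as deposited the median of all genes stood at 0.26 for DOX in the NLRP4 line and at −0.21 for the DOX-treated NOD1 line against the DOX-treated NLRP4 line, against 0.01 and 0.02 after normalization. No paired analysis was possible because the labels number the arrays consecutively and give no replicate numbers shared across groups. The number of arrays limits what could be called: for DOX in the NOD1 line, 48 of 49 intervals lay within 0.5 of 0.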
